A study of Rattus norvegicus with 50 samples.

Results

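The livers of sham-dosed rats taken at 3 h were compared with those of sham-dosed rats taken at 24 h after the sham injection, with 3 rats in each group. These 6 livers are 6 of the 50 in the series and 6 of its 15 vehicle livers; they were chosen by their labels, and all 14217 genes measured by a probe set with 1 gene symbol were examined. All 50 rats were female Brown Norway rats of 9 to 11 weeks (Bn/Crl, strain 091, MHC haplotype RT1n), an inbred strain, and each array held the RNA of 1 snap-frozen liver. The series follows liver injury by galactosamine, a hepatotoxin given once by intraperitoneal (ip) injection, with and without nevirapine, an antiretroviral drug given by mouth. The vehicle rats received neither drug and stand in the series as the baseline for each sampling time.

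The 3 h rats were taken 3 h after the sham injection and 5 h after the last sham oral dose. The 24 h rats were taken 24 h after the sham injection and 2 h after the last oral dose. The 3 h rats were therefore injected 2 h after their oral dose, and if daily doses were 24 h apart, they were sampled 3 h later in the dosing day than the 24 h rats. The labels give no hour of the day, light schedule or feeding state, so hours since injection, hours since gavage and time of day cannot be told apart in this comparison. Vehicle rats taken at 48 h, 8 d and 15 d, 3 each, were all labelled as taken 2 h after an oral dose and were used to place both groups. The labels name no cage, batch or pairing, so effects of these cannot be told apart from those of the groups. The p-values rest on the spread between rats within all 17 groups of the series, treated rats included.

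The liver holds its own circadian clock. BMAL1, paired with CLOCK or NPAS2, switches on genes through E-box sequences. Among them are the Per and Cry repressors, which turn the pair off again, the nuclear receptors REV-ERB alpha and beta (Nr1d1 and Nr1d2), and the output factors Dbp and Tef. REV-ERB represses and ROR activates Bmal1 and Npas2 through a sequence called the RORE, which closes another loop. In rodent liver the activators and the Dbp class therefore peak at opposite times of day, and clock, feeding and hormones together set the rhythm of many metabolic genes.

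Values are log2 signals, so a difference of 1 is a doubling, and every difference is 3 h minus 24 h. A gene was called when its adjusted p in the limma fit was under 0.05. Of the 14217 genes, 169 were called (1.19%), 28 of them higher at 3 h (0.197%) and 141 lower (0.992%). After a further cyclic loess normalization, 37 of 121 called genes were higher. The median difference of all genes was -0.014, and the median size of a called difference was 0.64, with 8 rises and 28 falls above 1. The 3 rats of each group did not overlap for 168 of the called genes, against 21.3% of all genes. As a call itself favours groups that do not overlap, this count is no separate support for the calls. A signal at or below 4.37, the highest mean among 27 bacterial control probe sets, was taken as background.

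Measures of RNA quality and cell makeup overlapped between the 2 groups. Array medians lay between 5.01 and 5.074, and pairs of arrays correlated at 0.9925 to 0.9954 within a group and at 0.9897 to 0.9934 between groups. The GAPDH 3′ minus 5′ probe set difference, a measure of RNA integrity, was 0.40 ± 0.184 (SD, n = 3) at 3 h and 0.47 ± 0.237 (SD, n = 3) at 24 h (exact permutation test, two-sided, p = 0.60, where the smallest possible is 0.10). None of 106 measured markers of 11 cell types was called in the limma fit, where 1.19% of all genes were. At that share a list of 106 can hold few calls or none. An unadjusted p under 0.05 was found for 3 markers, against 1902 of all 14217 genes. Both group means were at or under background for 34 of the 106, among them 8 of 13 T and NK cell and 7 of 10 pancreas acinar markers. The summed level of 16 hepatocyte markers ran from 17.23 to 17.25 in both groups, and the sums of the 10 other marker lists overlapped. All 5 neutrophil markers and 6 of 7 mast cell and eosinophil markers were at or under background in these livers. In whole liver RNA, fewer cells of a type and less RNA per cell cannot be told apart.

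The largest rises were those of the clock activators Npas2 and Bmal1, the DNA-binding partners that drive the E-box genes. Npas2 stood at 6.46, 6.54 and 5.84 in the 3 h rats and at 3.19, 3.71 and 3.94 in the 24 h rats, which were all under background. Every 3 h rat exceeded every 24 h rat. The difference was 2.67 ± 0.37 (SE of the fit; adjusted p = 7.04e-05), a rise of at least 3.76-fold over background. Bmal1 stood at 6.53, 6.57 and 6.10 in the 3 h rats and at 4.62, 4.32 and 4.30 in the 24 h rats, again without overlap. It rose by 1.99 ± 0.33 (adjusted p = 0.0011), or 3.96-fold; as 24 h rats 5 and 6 were under background and the 24 h mean of 4.41 barely above it, this fold is limited by background. Both calls remained without each of the 6 rats. Clock, the constitutive partner, stood at 7.60, 7.49 and 7.36 against 6.77, 7.13 and 7.13; the groups did not overlap, but its difference of 0.47 ± 0.16 did not pass the test (adjusted p = 0.153), and its 3 other probe sets gave 0.32 to 0.42. Rora, an activator at the RORE, differed by 0.21 ± 0.20 with overlapping groups (adjusted p = 0.732).

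The promoter sequences of Bmal1, Tef and Nr0b2 are shown as examples, chosen after their values were seen, of letters that clock factors read between 250 bases before and 50 after the RefSeq start. All 3 genes kept their call without each rat. Of the other genes that did, Usp2 and Bcas3, which were lower at 3 h, also carry the RORE core found in Bmal1, and Slc25a33 (lower) and Slc16a1 (higher) the E-box found in Tef and Nr0b2. In Bmal1 (GRCr8, chr1:176766228-176766327, plus strand) the capitals mark the RORE core AGGTCA at positions -15 to -10 from the start. In Tef (chr7:115206589-115206688, plus strand) and Nr0b2 (chr5:151062927-151063026, plus strand) they mark the E-box CACGTG, at -198 to -193 and at -193 to -188.
Bmal1: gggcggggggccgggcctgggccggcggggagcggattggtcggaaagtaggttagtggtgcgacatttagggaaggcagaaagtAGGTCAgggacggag
Tef: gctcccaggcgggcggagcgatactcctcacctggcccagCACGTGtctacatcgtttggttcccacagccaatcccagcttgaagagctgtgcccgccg
Nr0b2: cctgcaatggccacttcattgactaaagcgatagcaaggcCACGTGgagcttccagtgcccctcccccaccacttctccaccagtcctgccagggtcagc

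Such matches are common. Searched on both strands, CACGTG lay in 6.42% of all 33469 promoter windows and in 9.35% of the tested genes with a window, against 5 of 26 genes called higher and 12 of 122 called lower. AGGTCA, which is also the half-site of many nuclear receptors, lay in 16.2% of windows and 13.7% of tested genes, against 8 of 26 and 13 of 122. The D-box TTATGTAA, read by Dbp and Tef, lay in 0.893% of windows and 0.571% of tested genes, against 1 of 26 and 0 of 122. The windows of Npas2, Dbp and Per3 held none of these letters. These counts describe letters, not binding.

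Of the 11 measured genes listed as clock repressors, 3 were lower at 3 h and none was higher (background 0.992% and 0.197%). The 3 include Timeless, which is not one of the Per and Cry repressors. Per3 stood at 5.66, 6.18 and 6.34 in the 3 h rats and at 7.85, 6.90 and 7.43 in the 24 h rats. It fell by 1.33 ± 0.30 (adjusted p = 0.0145; 2.52-fold lower) without overlap; a second Per3 probe set, under background in both groups, differed by -0.02. Per1, which glucocorticoids also induce, stood at 7.37, 7.51 and 7.07 against 8.27, 7.76 and 8.33. The difference of Per1 was -0.80 ± 0.20 (adjusted p = 0.0361). Timeless, a replication fork protein named for its fly homologue, was at 4.94, 4.63 and 4.54 against 5.45, 5.91 and 5.90, a difference of -1.05 ± 0.26 (adjusted p = 0.0329).

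These 3 calls depended on single animals. Without 3 h rat 1 the adjusted p was 0.141 for Per3 and 0.129 for Per1, and without 24 h rat 4 it was 0.121 and 0.158. Per1 also lost its call without 3 h rat 2 (0.0672), 3 h rat 3 (0.113) and 24 h rat 6 (0.15), and after cyclic loess (0.101). Timeless lost its call without any 1 of the 6 rats, with adjusted p between 0.0579 and 0.153.

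Per2 gave different answers by probe set. The brighter one over the series stood at 7.05, 6.95 and 7.06 against 7.23, 7.08 and 7.15 and differed by -0.14 ± 0.10 (adjusted p = 0.596), whereas the other differed by -1.30 ± 0.29 (adjusted p = 0.0175 over all probe sets, of which 0.855% were called), from a mean of 7.62 at 24 h to 6.32 at 3 h. With its probe sets averaged, Per2 was called (-0.72, adjusted p = 0.0209), in a setting where 142 genes were. The other repressors were not called. Cry1 differed by -0.13 ± 0.29, Cry2 by -0.15 ± 0.17, Bhlhe40 by -0.56 ± 0.29 and Nr1d2 by -0.49 ± 0.21 (adjusted p from 0.281 to 0.912). Nr1d1, the REV-ERB alpha gene, differed by 0.32 ± 0.30 and Nfil3, a repressor at the D-box, by 0.43 ± 0.28 (adjusted p = 0.718 and 0.535). Bhlhe41 was under background in both groups.

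The PAR bZIP factors, output regulators that bind the D-box, were lower at 3 h for 2 of 3 genes, where 0.992% of all genes were. Dbp stood at 6.85, 7.50 and 8.19 in the 3 h rats and at 9.31, 9.20 and 9.19 in the 24 h rats. The 3 h rats were spread widely and the 24 h rats lay close together, without overlap. Dbp fell by 1.72 ± 0.42 (adjusted p = 0.0269; 3.29-fold lower), and the call was lost without 3 h rat 1 (0.236), 3 h rat 2 (0.112) or 24 h rats 4, 5 or 6 (0.0994, 0.0884 and 0.0639). Tef stood at 7.61, 7.65 and 7.52 against 8.25, 8.19 and 8.40. It fell by 0.69 ± 0.13 (adjusted p = 0.00263) and kept its call without each rat; a second Tef probe set gave -1.04 (adjusted p = 0.0204) and a dim one -0.32. Hlf, the remaining factor, stood at 7.68, 7.15 and 7.12 against 8.37, 7.98 and 8.34, a difference of -0.92 ± 0.35 that did not pass the test (adjusted p = 0.203).

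Usp2, a deubiquitinase whose liver mRNA is rhythmic, had the smallest adjusted p of the genes named here. It stood at 6.83, 6.68 and 6.85 in the 3 h rats and at 9.07, 8.60 and 8.92 in the 24 h rats. It fell by 2.08 ± 0.25 (adjusted p = 8.42e-06; 4.21-fold lower), and a second probe set fell by 1.77 (adjusted p = 0.000311). Noct (nocturnin, a rhythmic NADP(H) phosphatase) stood at 5.86, 7.57 and 6.34 against 7.58, 8.68 and 8.57, a difference of -1.69 ± 0.49 that was not called (adjusted p = 0.0778; 0.0489 without 3 h rat 2). Gys2, liver glycogen synthase, and Wee1, a mitotic kinase, differed by -0.84 ± 0.26 and -0.76 ± 0.27 (adjusted p = 0.112 and 0.158), and Gys2 was called without 3 h rat 3 (0.0263). Usp2 was the only one of 11 measured rhythmic output genes to be called. None of 3 measured clock kinases and ligases was, with differences from -0.36 to 0.11 and 1 unadjusted p under 0.05. Across the lists of activators, repressors and PAR bZIP factors, 2 of 18 measured genes were called higher and 5 lower (0.197% and 0.992% of all genes), and 10 had an unadjusted p under 0.05, against 1902 of all 14217. The 5 include Timeless, the replication fork protein.

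**Figure D1:**
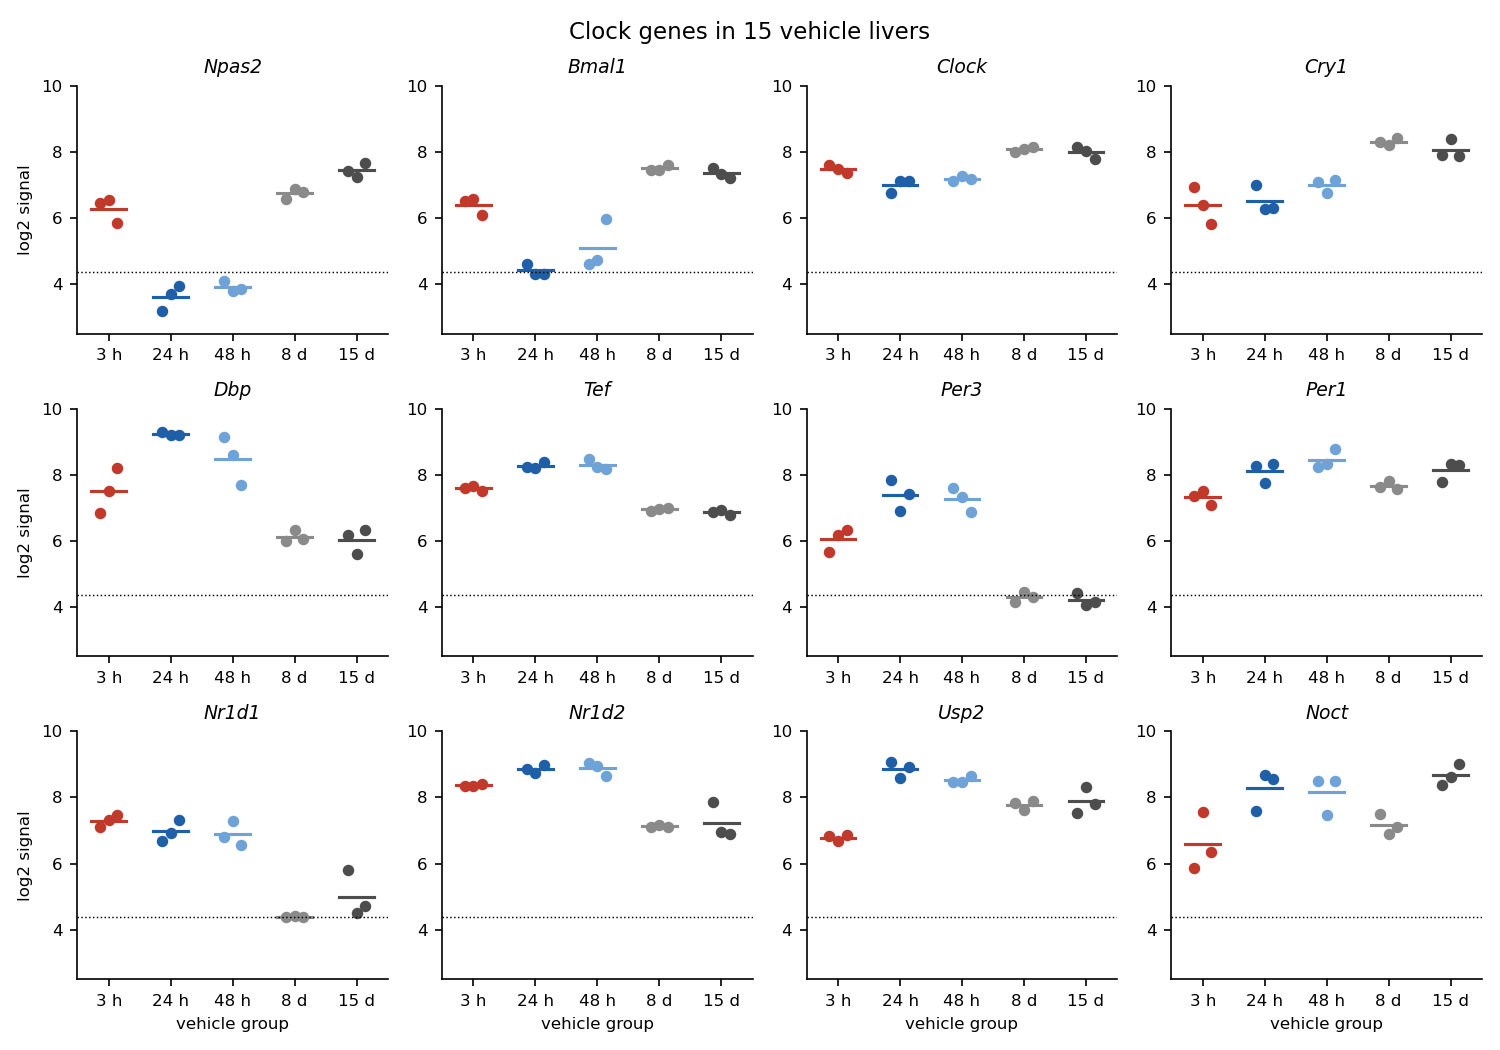
Log2 signal of 12 clock and clock-output genes (panels) in the 15 vehicle livers, by vehicle group on the x axis; each point is 1 rat, bars are group means and the dotted line is the background level of 4.37. Npas2 and Bmal1 are high at 3 h and low at 24 h and 48 h, Dbp, Tef, Per3 and Usp2 run the other way, and in the 8 d and 15 d rats Npas2 and Bmal1 are higher, and Dbp, Tef, Per3 and Nr1d1 lower, than in the 3 h rats.

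The other vehicle groups placed both groups of rats. The 48 h rats, taken at the same interval after the oral dose as the 24 h rats, lay near them in most clock genes. Npas2 was at 4.10, 3.78 and 3.85 and Per3 at a mean of 7.26 in the 48 h rats. Between 48 h and 24 h none of the 18 clock genes was called, where 3.22% of all genes (458) were. At that share any list of 18 genes may hold no call, so this absence says little. Of the 18, 2 had an unadjusted p under 0.05, against 2184 of all 14217, and the clock activators had a median difference of 0.26. With the 48 h rats in place of the 24 h rats, where 2.6% of all genes were called, Npas2 (2.37), Usp2 (-1.75), Tef (-0.71), Per1 (-1.14) and Per3 (-1.20) were called, with adjusted p from 5.99e-05 to 0.0186. Bmal1 differed from the 48 h rats by 1.30 (adjusted p = 0.0245), and 1 of these, rat 12, stood at 5.98 beside 4.62 and 4.72 in the others. Dbp was not called against them (-0.96, adjusted p = 0.254), with 48 h rats at 9.13, 8.59 and 7.70. The 3 h comparison and the 48 h comparison share the 24 h rats.

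For Npas2, Bmal1, Dbp, Tef and Per3 the 8 d and 15 d vehicle rats lay beyond the 3 h rats, on the side away from the 24 h rats, although their labels also give 2 h since the oral dose. Bmal1 was at 7.45, 7.45 and 7.61 at 8 d and at 7.51, 7.34 and 7.22 at 15 d, above every 3 h rat. Dbp was at 6.00, 6.32 and 6.04 at 8 d and at 6.19, 5.59 and 6.32 at 15 d, below every 3 h rat. Per3 had means of 4.30 and 4.21 there, under background, and Nr1d1 means of 4.39 and 5.00 against 7.29 at 3 h. Usp2 and Per1 did not follow this order: their 8 d and 15 d means (7.78 and 7.89 for Usp2, 7.66 and 8.15 for Per1) lay between those of the 3 h and 24 h rats or close to the 24 h rats. The GAPDH 3′ minus 5′ difference was 0.026 to 0.118 in the 8 d and 15 d rats and 0.483 to 0.744 in the 48 h rats. Its part in these levels was not tested.

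Outside the clock, the largest fall was that of Zfp354a, a KRAB zinc finger protein. It stood at 6.42, 6.82 and 5.99 in the 3 h rats and at 8.57, 8.57 and 9.18 in the 24 h rats. It fell by 2.36 ± 0.39 (adjusted p = 0.0011; 5.14-fold lower) and kept its call without each rat. Nr0b2 (SHP), a nuclear receptor that restrains bile acid synthesis, stood at 7.29, 6.77 and 7.44 against 8.81, 8.55 and 9.86. It fell by 1.91 ± 0.35 (adjusted p = 0.00263; 3.75-fold lower), also without dependence on any single rat for its call. For both genes the 3 h rats lay below all 12 other vehicle rats, whose group means were 8.29 to 8.77 for Zfp354a and 8.13 to 9.20 for Nr0b2.

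Srebf1 and Ppp1r3b were the next largest falls outside the clock. Srebf1, which encodes the lipogenic factor SREBP-1, stood at 7.70, 8.42 and 8.49 against 10.06, 9.99 and 9.01. It fell by 1.48 ± 0.28 (adjusted p = 0.0032), and its second probe set by 0.77 (adjusted p = 0.0461). Ppp1r3b, the liver subunit that brings protein phosphatase 1 to glycogen, stood at 7.56, 7.72 and 7.31 against 9.44, 8.80 and 8.76. It fell by 1.47 ± 0.29 (adjusted p = 0.00566), and its 3 h rats lay below all other vehicle rats. The Srebf1 call was lost without 3 h rat 1 (0.0636) and that of Ppp1r3b without 24 h rat 4 (0.0674).

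Hsd17b2, which inactivates estradiol and testosterone, stood at 9.71, 10.37 and 10.58 against 11.73, 11.70 and 11.59. It fell by 1.46 ± 0.34 (adjusted p = 0.0218), with the 24 h rats above every other vehicle rat, but was not called without any 1 of the rats other than 3 h rat 3 (adjusted p from 0.0502 to 0.204) or against the 48 h rats (0.266). Lama3 (laminin alpha 3) differed by -1.37 ± 0.28, Nat8 (an acetyltransferase of mercapturic acid synthesis) by -1.36 ± 0.35, Lmo7 (a LIM domain protein of cell junctions) by -1.31 ± 0.26 and Tsku (a secreted leucine-rich protein) by -1.30 ± 0.30, with adjusted p from 0.00615 to 0.0431. All 4 lost their call without 24 h rat 4 (Lama3 0.0521, Nat8 0.184, Lmo7 0.0695, Tsku 0.0512). Without 3 h rat 1 the adjusted p was 0.128 for Lama3, 0.189 for Nat8 and 0.0607 for Lmo7, and without 3 h rat 2 it was 0.245 for Nat8 and 0.11 for Tsku. Nat8 lost it without 24 h rat 5 (0.142), after cyclic loess (0.0827), with a trend and robust prior (0.0547) and with the GAPDH difference as a covariate (0.0504) too, and Tsku without 3 h rat 3 (0.106) and 24 h rats 5 and 6 (0.0884 and 0.0852). In Tsku the 3 h rats were at 7.55, 6.78 and 6.24 and the 24 h rats at 7.89, 8.21 and 8.36; Rell1, a membrane protein outside the naming rule, was at 5.43, 5.45 and 5.46 against 6.62, 6.52 and 6.13 (adjusted p = 0.0185, and up to 0.109 without rats 1, 2, 4 or 5). In both genes the 3 h rats were below all other vehicle rats.

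**Figure D2:**
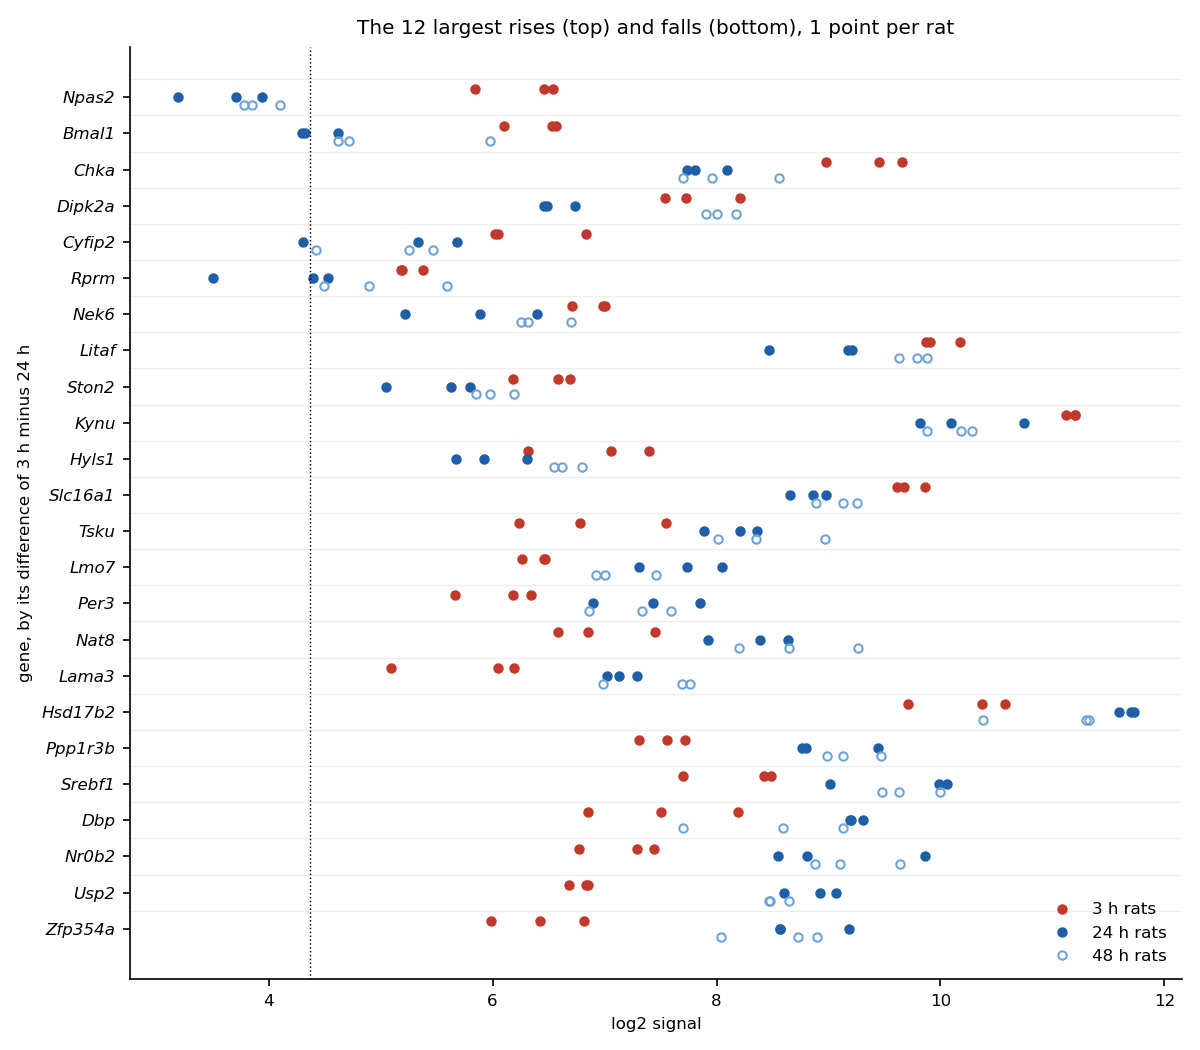
Log2 signal (x axis) of the called genes with the 12 largest rises and the 12 largest falls (rows), with 1 point per rat for the 3 h, 24 h and 48 h vehicle groups; the dotted line is the background level of 4.37. The 3 h and 24 h points do not overlap in any row, and the 48 h rats sit with the 24 h rats in Npas2, Usp2 and Zfp354a but with the 3 h rats in Dipk2a and Litaf.

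After Npas2 and Bmal1 the largest rise was that of Chka, choline kinase alpha, the first enzyme of phosphatidylcholine synthesis from choline. It stood at 9.66, 9.45 and 8.98 against 7.81, 7.74 and 8.09. It rose by 1.48 ± 0.30 (adjusted p = 0.00615; 2.80-fold), a call lost without 3 h rat 1 (0.0715). Litaf, an endosomal membrane protein, stood at 10.17, 9.87 and 9.91 against 8.47, 9.21 and 9.17 and rose by 1.03 ± 0.14 (adjusted p = 7.39e-05). Dipk2a, a protein of the secretory pathway, stood at 8.21, 7.73 and 7.54 against 6.49, 6.74 and 6.46 and rose by 1.26 ± 0.23 (adjusted p = 0.00275); the call was lost without 3 h rat 1 (0.0562), and its 2 dimmer probe sets gave 0.09 and 0.11.

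In Litaf and Dipk2a it was the 24 h group that stood apart. Its rats lay below all 12 other vehicle rats, and the 48 h rats exceeded them by 0.81 ± 0.14 and 1.46 ± 0.23 (adjusted p = 0.000747 and 0.000178). Against the 48 h rats the 3 h difference of Litaf was 0.22 (adjusted p = 0.541) and that of Dipk2a changed sign (-0.20, adjusted p = 0.781).

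Kynu, kynureninase of tryptophan breakdown, stood at 11.20, 11.20 and 11.12 against 9.82, 10.75 and 10.09 and rose by 0.96 ± 0.20 (adjusted p = 0.00936). Slc16a1, the monocarboxylate transporter MCT1, stood at 9.86, 9.67 and 9.61 against 8.66, 8.98 and 8.86 and rose by 0.88 ± 0.17 (adjusted p = 0.00339); its other probe set, under background, gave -0.02. The other 5 of the 12 largest rises were Cyfip2, a subunit of the WAVE actin complex (1.20 ± 0.28), Rprm, a p53-induced cell cycle inhibitor (1.11 ± 0.23, at least 1.84-fold), Nek6, a mitotic kinase (1.07 ± 0.21), Ston2, an endocytic adaptor (0.99 ± 0.25), and Hyls1, a centriole protein (0.96 ± 0.24), with adjusted p from 0.00564 to 0.0351. Each of these 5, and Kynu, lost its call without 24 h rat 4, the lowest 24 h rat in all of them: the adjusted p was then 0.216 for Cyfip2, 0.131 for Rprm, 0.0989 for Nek6, 0.2 for Ston2, 0.187 for Hyls1 and 0.106 for Kynu. Without 3 h rat 1 it was 0.23 for Cyfip2, 0.0514 for Nek6, 0.154 for Ston2, 0.307 for Hyls1 and 0.0607 for Kynu. Ston2 and Hyls1 each lost it without 2 further rats as well, Ston2 without 3 h rat 3 (0.0834) and 24 h rat 6 (0.052), Hyls1 without 3 h rat 2 (0.171) and 24 h rat 5 (0.123).

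**Figure D3:**
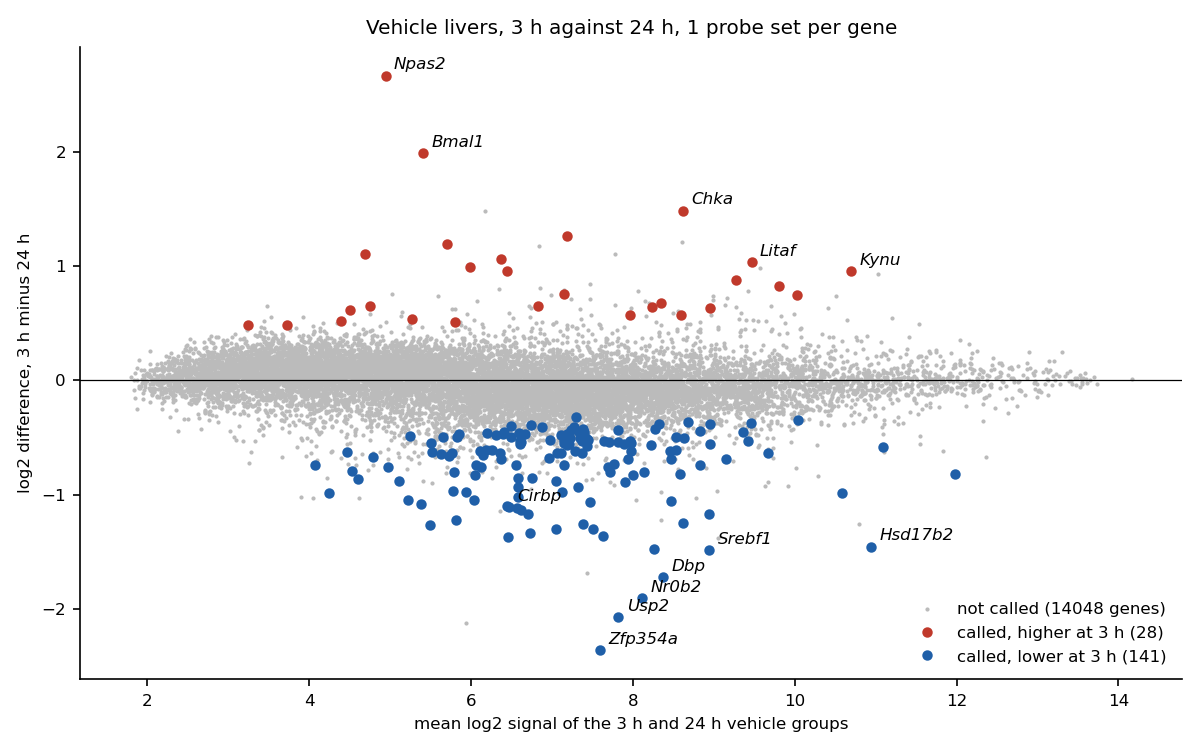
Log2 difference, 3 h minus 24 h (y axis), against the mean log2 signal of both groups (x axis) for the 14217 genes, 1 point per gene; red marks the 28 genes called higher, blue the 141 called lower and grey the 14048 not called. Called falls outnumber called rises and reach -2.36 (Zfp354a), while Npas2 (2.67) and Bmal1 (1.99) lead the rises.

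The calls as a whole rested on small groups. Of the 169, 20 kept the call without each of the 6 rats, 6 higher and 14 lower. The number called fell to 32 without 3 h rat 1, 58 without 3 h rat 2, 43 without 24 h rat 4 and 79 without 24 h rat 5, and was 279 without 3 h rat 3 and 123 without 24 h rat 6. Of the 20, 11 were also called in each of the 9 other settings planned: Bmal1 and Npas2 among the rises, and Zfp354a, Usp2, Nr0b2, Tef, Wdr6, Fn3k, Pced1b, Lima1 and Gpat4 among the falls. Fitted on these 6 arrays alone, 72 genes were called, 51 of them among the 169, and Per3, Per1, Srebf1, Lama3, Tsku, Litaf, Cyfip2, Rprm, Nek6, Ston2, Hyls1, Kynu, Cirbp and Abcb1a were not (adjusted p from 0.0539 to 0.141). When a gene's probe sets were averaged instead, the adjusted p was 0.0548 for Ppp1r3b, 0.0673 for Slc16a1, 0.0676 for Cirbp and 0.172 for Abcb1a, while Per2 was called (0.0209). On the 15 vehicle arrays, where 622 genes were called, Clock (0.029), Hlf (0.0142), Noct (0.0243), Gys2 (0.0469), Pdk4 (0.0385), Cpt1a (0.00852), Scd (0.0138), Jun (0.029), Hspa1a (0.0205), Rbm3 (0.0398), Creld2 (0.0102) and Hyou1 (0.0473) were called as well. So were Csnk1d (0.0418), Hsd17b7 (0.0127), Irf1 (0.00647), Mcm2 (0.0217), Pes1 (0.022), Tp53inp1 (0.0401) and Ddit4 (0.0198). Some of these belong to lists that held no call in the main fit. Irf1 and Hspa1a were also called on the 6 arrays alone (0.0488 and 0.0377). Those of the 11 not described above were picked for this stability after their values were seen. Fn3k, the kinase that removes sugar adducts from proteins, stood at 5.73, 6.13 and 6.32 against 7.33, 7.41 and 6.83 (-1.13 ± 0.20, adjusted p = 0.00185). Gpat4, an acyltransferase at the start of glycerolipid synthesis, stood at 8.15, 8.23 and 8.00 against 8.97, 8.73 and 8.76 (-0.69 ± 0.11, adjusted p = 0.00108). Wdr6, Pced1b and the actin-binding Lima1 differed by -1.26 ± 0.21, -0.96 ± 0.17 and -0.76 ± 0.13. In Fn3k, Gpat4 and Lima1 it was the 24 h rats that stood apart, above all 12 other vehicle rats, while the 3 h rats lay inside the range. The other 9 of the 20 were Nmrk1, Slc25a33, Bcas3, Bap1 and Cirbp, which fell, and Jcad, Slc16a1, Litaf and Pla2g10, which rose.

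Most of the 29 lists of pathway genes held few called members, as the plot of list members shows. Over all genes 0.197% were called higher and 0.992% lower, and 1902 of 14217 had an unadjusted p under 0.05. Fatty acid synthesis genes had 2 of 17 members lower, where 0.992% of all genes were, with a list median of -0.10 against -0.01 over all genes: Srebf1, and Acaca, which encodes acetyl-CoA carboxylase 1, at 7.02, 6.66 and 7.05 against 7.46, 7.69 and 7.27 (-0.56 ± 0.15, adjusted p = 0.0433). Acaca was named for its call, after its values were seen, and lost it without rats 1, 2, 4 or 5 (adjusted p up to 0.31). The elongase Elovl6 lay at the threshold: its difference of -0.95 was not called (adjusted p = 0.0524), its second probe set was (-1.20, 0.0414), and it was called with the dimmest genes left out (0.0376), with its probe sets averaged (0.0351), on the 6 arrays alone (0.0499) or the 15 vehicle arrays (0.0094) and with array weights (0.00933). The desaturases Fads1 (-0.60, 0.433) and Scd (1.48, 0.269) were not called. In glycogen and glucose metabolism Ppp1r3b was the 1 called gene of 12 (median -0.11), with Gckr, the glucokinase regulator, at 0.64 (adjusted p = 0.0852, and 0.0223 without 24 h rat 5). Nr0b2 was the 1 of 18 bile acid genes (median 0.02); Cyp7a1, the rate-limiting enzyme of bile acid synthesis and a target of its repression, stood at 8.18, 9.86 and 9.63 against 10.06, 10.79 and 9.50, with overlapping groups (-0.89 ± 0.69, adjusted p = 0.640).

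None of 16 fasting genes, 19 fatty acid oxidation genes or 20 cholesterol synthesis genes was called, with list medians of -0.17, -0.13 and -0.11 and 3, 2 and 2 unadjusted p-values under 0.05. Between 48 h and 24 h, 6 of the 19 fatty acid oxidation genes were called lower (median -0.43), against 354 of all 14217 genes. In that comparison 2 fasting genes were called lower and 1 cholesterol synthesis gene higher. In these lists Pdk4, the pyruvate dehydrogenase kinase of the fasted state, stood at 11.93, 11.04 and 11.50 against 10.81, 10.35 and 10.53 (0.93 ± 0.40, adjusted p = 0.281). Cpt1a, the carnitine palmitoyltransferase, stood at 11.95, 11.87 and 12.26 against 12.76, 12.65 and 12.67 (-0.67 ± 0.20, adjusted p = 0.0977). Amino acid catabolism had 1 called gene of 25, Kynu, where 0.197% of all genes were called higher. The serine dehydratase Sds ran from 9.62 to 10.47 at 3 h and from 10.41 to 12.21 at 24 h (adjusted p = 0.452). None of 7 urea cycle genes and none of 12 growth hormone axis genes was called, and 0 of them had an unadjusted p under 0.05.

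Temperature-responsive genes gave called genes of opposite sign. Cirbp, a cold-inducible RNA-binding protein that is also rhythmic in liver, stood at 5.56, 5.80 and 6.37 against 6.91, 7.29 and 6.86. It fell by 1.11 ± 0.19 (adjusted p = 0.00156), kept its call without each rat and also against the 48 h rats (-1.05, 0.00103); its other probe sets differed by -0.43 and -0.19 and were not called. Its relative Rbm3 stood at 6.59, 7.20 and 7.42 against 8.00, 8.03 and 7.76 (-0.86 ± 0.24, adjusted p = 0.0572); it was called without 3 h rat 3 (0.0306) and with the dimmest genes left out (0.0422). Of 15 heat shock genes, 1 was higher (list median 0.18), where 0.197% of all genes were. Between 48 h and 24 h, 6 of the 15 were called lower (median -0.53), against 354 of all 14217 genes. The gene called at 3 h was Hsph1, the HSP110 chaperone, at 10.39, 10.27 and 10.00 against 9.25, 9.47 and 9.48. It rose by 0.82 ± 0.19 (adjusted p = 0.0163), as did its second probe set (1.04, 0.0461). The Hsph1 call was lost without 3 h rat 1 (0.132), 3 h rat 2 (0.0848) or 24 h rat 4 (0.0994). Hspa1a, inducible HSP70, was at 7.53, 7.54 and 7.24 against 6.38, 5.79 and 6.60 but was not called (1.18 ± 0.48, adjusted p = 0.247).

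Errfi1, Herpud1, Sesn2 and Abcb1a were lower at 3 h in 5 lists of stress-responsive and hormone-responsive genes, where 0.992% of all genes were. Among 19 glucocorticoid targets (median -0.18) these were Per1 and Errfi1, an inhibitor of the EGF receptor, at 11.43, 11.66 and 11.64 against 12.35, 12.36 and 12.47 (-0.82 ± 0.21, adjusted p = 0.0369). Tsc22d3 (GILZ), a standard glucocorticoid target that lies outside the naming rule, differed by -0.59 ± 0.24 (adjusted p = 0.251). Herpud1, of the endoplasmic reticulum degradation machinery, was the 1 called of 20 in its list; it stood at 10.06, 10.04 and 10.19 against 11.10, 11.06 and 11.10 (-0.99 ± 0.21, adjusted p = 0.0106), while the chaperone list's median was 0.10 and Creld2, Hyou1 and Manf differed by 0.67, 0.45 and 0.31 without a call. Sesn2, a stress-induced regulator of mTORC1, stood at 7.27, 7.49 and 7.61 against 8.49, 8.19 and 8.36 (-0.89 ± 0.19, adjusted p = 0.0123) and was the 1 called gene of both 14 ATF4 targets and 14 p53 targets. Abcb1a, an export pump induced through PXR, was the 1 of 15 CAR and PXR genes (-0.74 ± 0.18, adjusted p = 0.0319). Single rats ended each of these calls: without 3 h rat 1 the adjusted p was 0.208 for Errfi1, 0.0672 for Herpud1, 0.117 for Sesn2 and 0.0514 for Abcb1a, and without 24 h rat 4 it was 0.105, 0.0579, 0.0842 and 0.0579. Without 3 h rat 2 it was 0.112 for Errfi1, 0.0629 for Herpud1 and 0.162 for Abcb1a, without 24 h rat 5 it was 0.112 for Errfi1 and 0.124 for Abcb1a, and without 24 h rat 6 it was 0.113 and 0.106. Abcb1a also lost its call without 3 h rat 3 (0.0781), and after cyclic loess the adjusted p was 0.0628 for Abcb1a and 0.0688 for Errfi1.

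The immediate early genes, which respond within minutes to handling and injury, varied widely between rats of a group. Fos stood at 2.80, 3.11 and 8.71 in the 3 h rats and at 7.01, 4.56 and 9.43 in the 24 h rats, so its groups overlapped (-2.13 ± 0.98, adjusted p = 0.326). Without 3 h rat 3 its difference was -4.04 and passed the test (0.00934). Jun stood at 7.50, 8.62 and 8.99 against 9.89, 9.24 and 10.11 (-1.38 ± 0.40, adjusted p = 0.072), and without the same rat its difference was -1.69 (0.0335). With all 6 rats none of the 29 genes of this list was called, and 3 had an unadjusted p under 0.05. No call was made either among 16 other P450 genes, 15 NRF2 targets, 19 acute phase genes, 27 cytokine genes, 22 interferon genes, 34 ribosome biogenesis genes or 28 cell cycle genes, with 1, 1, 0, 4, 2, 4 and 3 unadjusted p-values under 0.05. Of the cell cycle genes, 13 were under background in both groups.

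**Figure D4:**
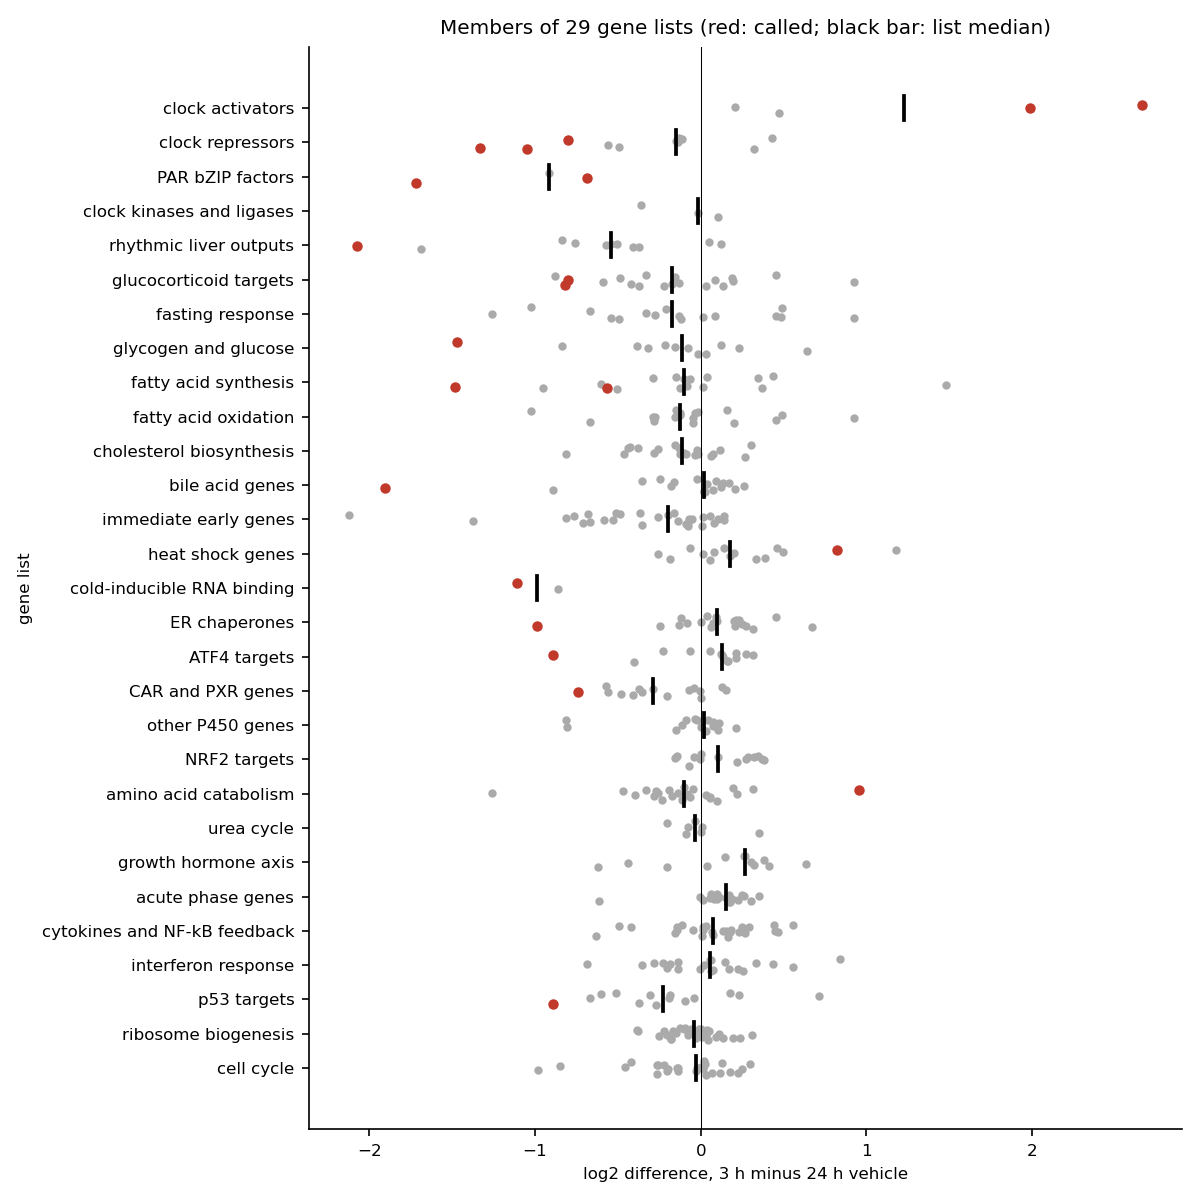
Log2 difference, 3 h minus 24 h (x axis), of the measured members of 29 gene lists (rows); each point is 1 gene, red points were called and black bars are list medians. The clock activators reach 2.67 and the PAR bZIP factors have a median of -0.92, while most other lists have medians between -0.29 and 0.26.

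Both groups contributed genes that set them apart from the rest of the vehicle series. Of the 169 called genes, the 3 h rats lay outside the range of all 12 other vehicle rats in 34 (20.1%, against 2.79% of all genes), in 30 of them below (17.8%, against 1.55%). The 24 h rats lay outside it in 62 (36.7%, against 3.16%), in 54 of them above (against 2.56% of all genes), and in 78 (46.2%, against 94.1%) neither did. Since a call already needs the groups to differ, these shares describe which group was at the edge. Both groups lay outside at once in 5 genes (0.0563% of all genes show this), Herpud1, Errfi1, Bcas3, Ift52 and Mtor, with the 3 h rats lowest and the 24 h rats highest. Against the mean of the 48 h, 8 d and 15 d rats, 885 genes (6.22%) were called for the 3 h rats, 431 higher (3.03%) and 454 lower (3.19%; 269 of 653 higher after cyclic loess and 192 of 608 with the dimmest 40% of genes left out), and 1000 (7.03%) for the 24 h rats, 624 higher (4.39%) and 376 lower (2.64%) (549 of 1066 higher after cyclic loess). These contrasts reuse the rats of the main comparison. The first number fell to 270 without 3 h rat 1 and 168 without 3 h rat 2, and the second to 314 without 24 h rat 4 and 310 without 24 h rat 5. With the 48 h rats in place of the 24 h rats, 48 of the 169 genes were called again. Of the called genes that the naming rule covers, Dbp, Timeless, Hsd17b2, Lmo7, Litaf, Dipk2a, Rprm, Nek6, Ston2, Hyls1, Herpud1 and Errfi1 were not called against the 48 h rats. This list leaves out genes described outside the rule, such as Fn3k, Gpat4 and Lima1. Among genes not called against the 24 h rats, Fads1 (-1.34, adjusted p = 0.015), Hspa1a (1.70, 0.0424) and Rbm3 (-0.83, 0.0485) were called against the 48 h rats.

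The step from 24 h to 3 h was also available in the treated rats, 3 per group and time. Galactosamine was given at 750 mg/kg, nevirapine by mouth at 150, 100 and then 75 mg/kg, and the combination as nevirapine before and after the galactosamine. In the nevirapine group the 3 h rats were labelled as taken 3 h after the oral dose and 1 h after the sham injection, unlike the vehicle rats. Between 3 h and 24 h 68.2% of genes were called with galactosamine, 41.2% with the combination and 18.6% with nevirapine, and these differences hold both drug and time. Npas2 was higher at 3 h by 2.60, 1.44 and 1.10 in these 3 treatments and Usp2 lower, at -1.48, -2.43 and -1.07, so both kept the sign seen in vehicle rats.

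Bmal1 did not. Its difference was 1.99 in vehicle rats, 0.83 with galactosamine, -1.20 with the combination and -0.36 with nevirapine. The 5 genes tested next (Npas2, Bmal1, Dbp, Per3 and Usp2) were picked after the data had been seen, and all were called in vehicle rats. The same vehicle rats enter these tests, so a smaller step in treated rats was favoured in advance. The share of all genes that pass the same tests was not counted, so these calls are not shown to be particular to clock genes. In 15 tests of the treated step against the vehicle step (5 genes, 3 treatments, adjusted over all genes), the step of Bmal1 differed from that in vehicle rats by -3.18 with the combination (adjusted p = 2.13e-06), -2.35 with nevirapine (0.00133) and -1.16 with galactosamine (0.0372). Per3 differed from its vehicle step by 2.13 with the combination (0.000147) and 1.60 with nevirapine (0.012), and Dbp by 2.72 with nevirapine (0.00266) and 1.62 with the combination (0.0343). With all rats and the same settings, the steps of Npas2 and Usp2 did not pass the test in any treatment, nor those of Dbp and Per3 with galactosamine, with adjusted p from 0.0502 (Npas2 with nevirapine, a difference of -1.56) to 0.924. Npas2 with nevirapine passed with the dimmest genes left out (0.0382), with array weights (0.00785) or without vehicle rats 3 or 6 or nevirapine rat 39 (0.0322, 0.0451 and 0.0287), and with the combination it passed with array weights (0.015) or without vehicle rat 3 (0.0437) or combination rat 63 (0.00426). Usp2 passed with galactosamine when probe sets were averaged (0.028) and with nevirapine under array weights (0.0307), and Dbp with galactosamine under array weights (0.00703) or without galactosamine rat 23 (0.0498). Single rats ended 3 of the calls. Bmal1 with galactosamine lost it without vehicle rats 1, 2, 5 or 6 or galactosamine rats 18 or 24 (adjusted p from 0.0663 to 0.135), and after cyclic loess (0.0902). Dbp with the combination lost it without vehicle rats 1, 2, 4, 5 or 6 or combination rats 61, 62, 67 or 79 (0.05 to 0.126). Per3 with nevirapine lost it without vehicle rats 1 or 4 or nevirapine rat 31 (0.0512 to 0.0661).

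**Figure D5:**
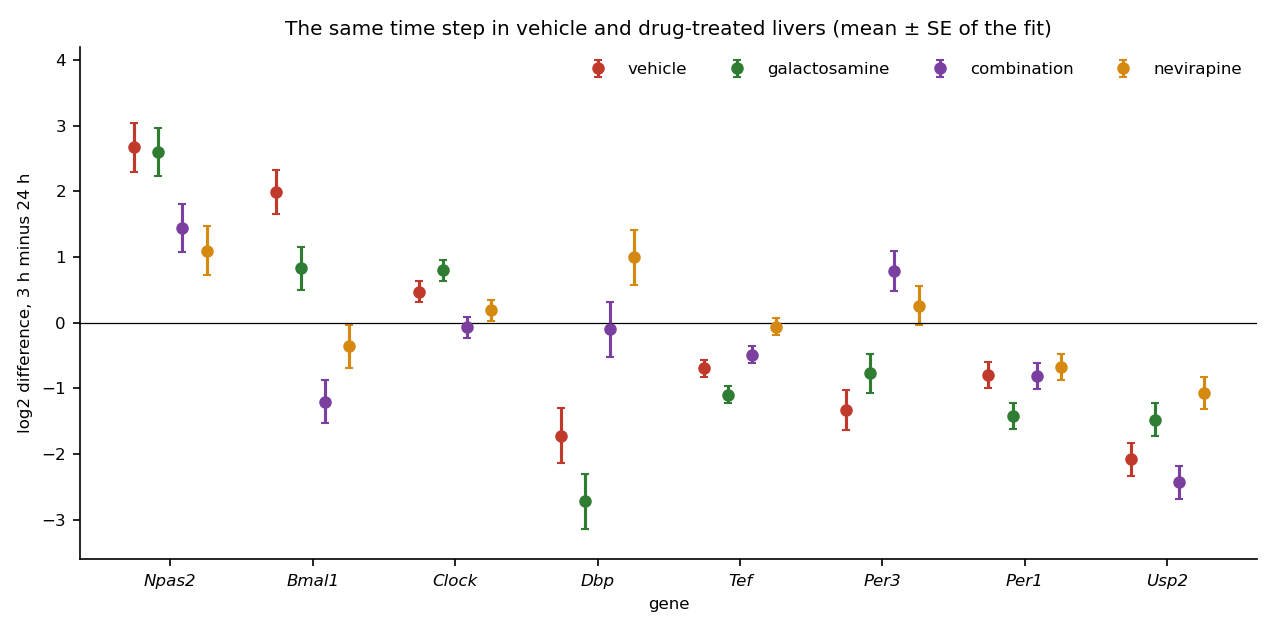
Log2 difference, 3 h minus 24 h (y axis, mean with the SE of the fit), of 8 clock and output genes (x axis) in vehicle, galactosamine, combination and nevirapine rats, 3 rats per group and time. Npas2 lies above 0 and Usp2 and Per1 below 0 in all 4, while Bmal1 runs from 1.99 in vehicle rats to -1.20 with the combination.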

How the data were processed

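Total liver RNA was labelled with the Affymetrix 3′ IVT Express protocol, per the labels, and hybridised to 1 rat expression array per liver. The deposited values are log2 signals per probe set, normalized by the authors with RMA, per the submitters' processing notes; no version is given in the sources used here. Of 31099 probe sets, 20826 carry 1 gene symbol in the platform annotation, 436 several and 9831 none listed here, and 57 are controls. Each of the 14217 genes was represented by its probe set with the highest mean over the 50 arrays (4525 genes have several).

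A mean for each of the 17 groups was fitted with limma 3.58.1 (R 4.3.3) on all 50 arrays, without covariates, so that all groups share 1 estimate of the spread per gene; p-values were adjusted by Benjamini-Hochberg over all genes. Differences are given with the SE of that fit. The number of arrays limits the precision. The script was tested on simulated data. Where 1 group mean was at or under background, the fold is against background and given as "at least".

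Named are the called genes with the 12 largest rises and 12 largest falls, provided that no rat of one group fell within the other (LOC and RGD symbols left out), all measured members of the 3 core clock lists, and up to 4 members with the largest difference in any other list; exceptions are marked. The members and lists were chosen with earlier results of these data known. Promoter sequences and starts come from RefSeq (GRCr8). Alternatives were the arrays fitted, the variance prior, a filter leaving out the dimmest 40% of genes, the treatment of probe sets, cyclic loess, array weights, a GAPDH covariate and leaving out each rat. The use of the 48 h rats and the tests against treated rats were added after the data had been seen.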

Additional observations from a re-analysis of the deposited data

Results flagged for a closer look

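The step from 24 h to 3 h differed between vehicle and treated rats for 3 of 5 clock and output genes tested, by a test of the difference itself. The 5 were picked after the data had been seen, and all were called in vehicle rats. As the same vehicle rats enter the tests, a smaller step in treated rats was favoured in advance. How many of all genes pass the same tests was not counted. The values below are the treated step minus the vehicle step, on the log2 scale. For Bmal1 it was -1.155 with galactosamine (adjusted p = 0.0372), -3.182 with the combination (2.13e-06) and -2.348 with nevirapine (0.00133). For Per3 it was 2.127 with the combination (0.000147) and 1.596 with nevirapine (0.012). For Dbp it was 1.616 with the combination (0.0343) and 2.717 with nevirapine (0.00266). The values for Bmal1 with the combination and nevirapine, Per3 with the combination and Dbp with nevirapine stayed past the threshold without each rat. The groups of 3 vehicle rats are too small for the check for single outlying rats, and drug and time are both in the treated values. With nevirapine the schedule differed too. Its 3 h rats were labelled as taken 3 h after the oral dose and 1 h after the sham injection, against 5 h and 3 h in vehicle rats.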

How the results depend on the processing

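The number of genes called between 3 h and 24 h (169) moved with the setting: it was 72 with only the 6 arrays compared, 622 with only the 15 vehicle arrays and 912 with array weights, and 32 to 279 when 1 rat was left out. It was 369 with the 48 h rats in place of the 24 h rats, and Dipk2a then changed sign (-0.201). Between 48 h and 24 h (458) the count was 1090 with the 15 vehicle arrays, 1198 with array weights and 131 to 413 with 1 rat left out, 131 of them without 48 h rat 12, 161 without 24 h rat 5, 227 without 24 h rat 4 and 249 without 48 h rat 11. For the 3 h rats against the mean of the later vehicle groups (885) it was 2138 with only the arrays compared, 2016 with the vehicle arrays, 1371 over every probe set, 3066 with array weights and 168 to 950 with 1 rat left out. For the 24 h rats against the same groups (1000) it was 2049, 2025 and 2152 with the first, second and last of these settings and 310 to 946 with 1 rat left out. Why these counts moved was not tested. The variance prior, the filter on dim genes, the mean of probe sets, cyclic loess and the GAPDH covariate left each of the 4 counts within 1.5 times its value. No paired analysis was possible because the rat numbers are not shared between groups. Differences of genes under background in 1 or both groups are limited by signal, as in Npas2, Bmal1 and Rprm at 24 h.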
